A study of Mus musculus with 24 samples.

Results

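The early pancreatic response to caerulein was described in mice with 1 intact copy of Nr5a2, by comparing pancreas taken 8 h after the first injection with pancreas of saline-treated mice of the same genotype. The comparison took the 3 libraries labelled Nr5a2 +/- with caerulein at 8 h and the 3 labelled +/- with saline, 6 of the 24 libraries of the series, chosen from the labels alone. All mice were C57BL. The +/- mice (HET) kept 1 copy of Nr5a2 and the +/+ mice (WT) had 2, and the type of mutant allele is not given in the sources used here. Caerulein was given intraperitoneally at 50 µg/kg in 7 hourly injections, and animals were killed 8, 24 or 48 h after the first of them. Each group held 3 animals, 1 library each, of polyadenylated RNA from whole pancreas, so a lower value in these bulk samples cannot separate fewer cells of a type from less RNA per cell. The 2 groups compared differed in library preparation as well as treatment: per the labels' protocols, the saline libraries followed an earlier TruSeq guide with 10 PCR cycles and the 8 h libraries the v2 guide with 8 cycles. Treatment and guide therefore cannot be told apart in the 8 h against saline comparison, and every difference below is a difference between these 2 groups of libraries.

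Caerulein is an analog of cholecystokinin, the gut hormone that makes acinar cells release digestive enzymes by raising cytosolic calcium through a Gq-coupled receptor. Above the secretory optimum it blocks release, activates zymogens inside the cell and causes a mild acute pancreatitis in rodents, in which acinar cells lower their secretory program, raise stress and cytoskeletal genes and recruit leukocytes. Nr5a2 encodes an orphan nuclear receptor that works with the acinar factors Ptf1a and Rbpjl at digestive enzyme genes.

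The deposited unit was FPKM, a fragment number divided by transcript length and library size, and sequencing depth is unknown. They were compared as log2(FPKM + 1), a scale that understates changes of low genes, and a log2 change below is on that scale with its standard error (SE). In the 3 HET saline libraries the FPKM of all genes summed to 1400108, 755744 and 745601, and in the 8 h libraries to 551933, 460255 and 502952. For the next shares, 29 genes whose zeros in a whole group were treated as missing were left out. Digestive enzyme, other acinar product and Reg genes then made up 51.4% to 54.8% of the remaining FPKM in saline and 16.7% to 18.7% at 8 h. The genes left out include abundant enzymes, some with values at 8 h such as Try4, so these are not shares of the full sums. Libraries of a group correlated across genes at r = 0.912 to 0.925 in saline and 0.947 to 0.949 at 8 h, and libraries of different groups at 0.753 to 0.785. For 9 abundant enzymes, levels could not be compared because they were listed at 0 in HET saline, and mostly at 8 h too (Cel, Cela1, Cela2a, Cpa1, Cpb1, Pnlip, Prss2, Try4 and Try5), while other groups held high values. Xist and Y-linked transcripts marked saline replicates 1 and 2 and 8 h replicate 3 as apart from the other 3 libraries (Ddx3y at 0 FPKM against 2.99 to 3.46 FPKM), so sex was not balanced between the groups. The tissue label held: acinar products such as Clps (70300 to 149000 FPKM in saline), islet Ins2 and ductal Krt19 were all measured.

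Nr5a2 itself was lower at 8 h. It read 9.09, 8.01 and 8.79 FPKM in HET saline and 2.15, 1.88 and 2.1 FPKM at 8 h, and the groups did not overlap. The log2 change was -1.66 ± 0.19 (SE; adjusted p = 3.89e-07, limma with Benjamini-Hochberg adjustment, 3 against 3 libraries), and the WT mice changed by -1.64. These reads come from all transcripts of the gene, so they do not check the +/- label.

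Of 12856 genes tested, 7100 passed an adjusted p of 0.05 (55.2%), 3946 of them higher at 8 h (30.7%) and 3154 lower (24.5%). The median absolute log2 change was 1.06 among the higher and 0.92 among the lower genes, and 179 rose and 28 fell over 8-fold on the log2(FPKM + 1) scale. Values of the 2 groups did not overlap for 7631 genes (59.4%). With so large a share called, a gene list is described below by its counts against these background shares and by its median beside that of all genes tested, 0.01. The p-values set each difference against the spread between animals within groups, estimated over all 24 libraries and not from the 6 compared alone.

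**Figure D1:**
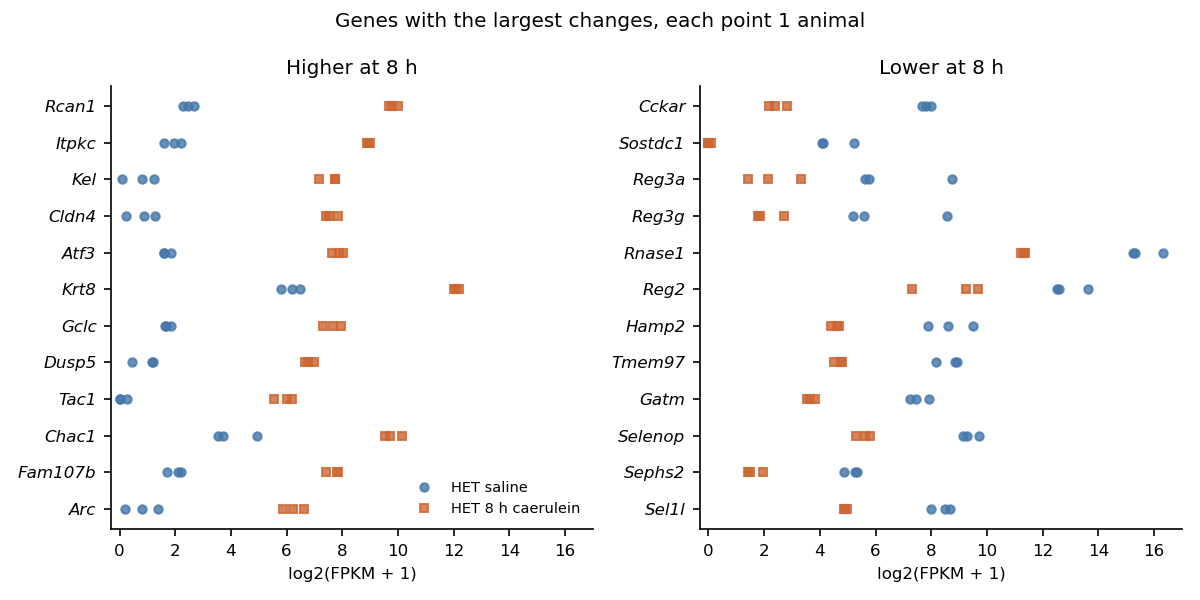
Levels of the 12 genes with the largest increase and the 12 with the largest decrease at 8 h in HET pancreas, as log2(FPKM + 1) on the x axis with 1 point per animal. Circles are saline and squares 8 h caerulein (3 animals each), and the groups do not overlap for any of the 24 genes, which were chosen for this.

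Among genes with an established symbol and no group at 0, the largest increase was in Rcan1, an inhibitor of the calcium-activated phosphatase calcineurin. Rcan1 read 5.33, 3.84 and 4.51 FPKM in saline and 1030, 874 and 818 FPKM at 8 h, a log2 change of 7.35 ± 0.17 and a 199-fold higher mean FPKM. Itpkc, a kinase that phosphorylates the calcium-releasing messenger inositol trisphosphate, rose from 3.66, 2 and 2.9 FPKM to 509, 468 and 479 FPKM, a 170.1-fold higher mean (adjusted p = 5.12e-13). The tight junction gene Cldn4 was below 1.5 FPKM in all saline libraries and at 231, 171 and 183 FPKM at 8 h (6.81 ± 0.45). Kel, the Kell blood group endopeptidase, read 1.38, 0.0608 and 0.756 FPKM in saline and 143, 213 and 212 FPKM at 8 h (6.83 ± 0.29). In each of these 4 genes the lowest 8 h library lay far above the highest saline library. Tac1, the precursor of the neuropeptide substance P, was listed at 0, 0 and 0.211 FPKM in saline and at 72, 64.3 and 45.4 FPKM at 8 h (5.83 ± 0.32). Arc, an activity-regulated immediate early gene, went from 1.6, 0.15 and 0.761 FPKM to 73.4, 57.8 and 97.6 FPKM (5.44 ± 0.26). The remaining 6 of the 12 largest increases, Atf3, Krt8, Gclc, Dusp5, Chac1 and Fam107b, lay between 5.67 and 6.16. Each of these 12 genes passed with an adjusted p of 4.95e-09 or lower.

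Under the same limits, the largest decrease was in Cckar, the cholecystokinin receptor that caerulein acts on. Cckar read 254, 203 and 222 FPKM in saline and 3.54, 4.22 and 6.07 FPKM at 8 h, a log2 change of -5.36 ± 0.40 (adjusted p = 1.24e-09). Rnase1, the secreted pancreatic ribonuclease, fell from 81300, 41100 and 38800 FPKM to 2550, 2400 and 2640 FPKM (-4.32 ± 0.80). Saline replicate 1 held the highest Rnase1 value and also the highest sum of FPKM. Gatm (the first enzyme of creatine synthesis) went from 240, 151 and 176 to 11.6, 10.5 and 13.3 FPKM (-3.87 ± 0.29). Selenop, the selenium transport protein, went from 831, 628 and 569 to 38.2, 48.1 and 54.5 FPKM (-3.82 ± 0.18), and Sephs2, which makes the selenium donor for selenoproteins, from 37.7, 28 and 39.5 to 1.69, 1.8 and 2.89 FPKM (-3.53 ± 0.25). Sel1l, the adaptor of the ER-associated degradation ligase, fell by 3.47 ± 0.34 on the log2 scale. The other 6 were Sostdc1, a secreted inhibitor of BMP and Wnt signals (-4.43), Reg3a (-4.42), Reg3g (-4.33), Reg2 (-4.17), Hamp2 (-4.08) and Tmem97 (-3.97). Reg3a, Reg3g and Hamp2 have close paralogs that can share reads.

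**Figure D2:**
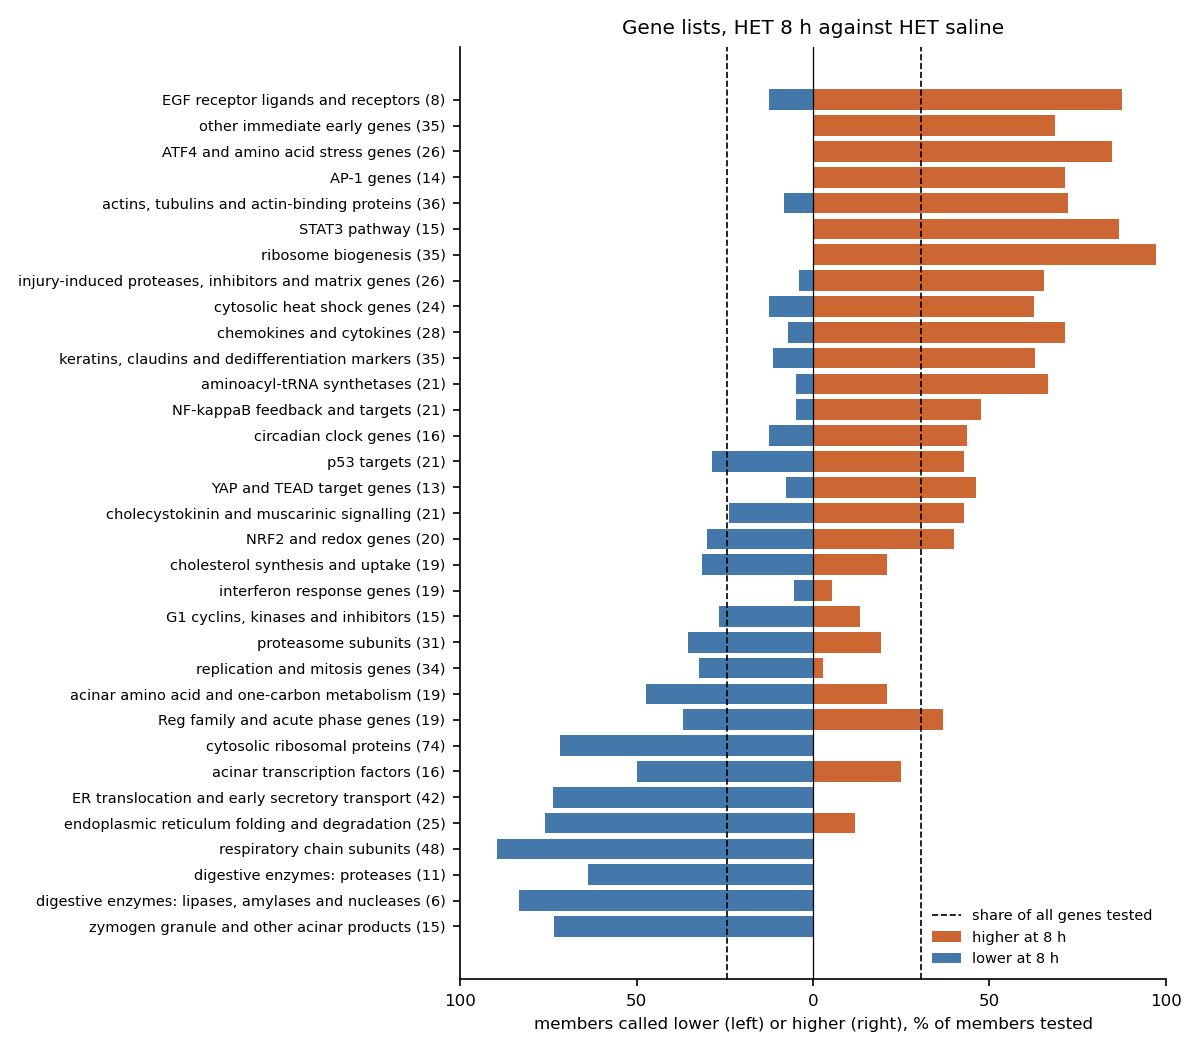
Share of the tested members of each pathway list (number in brackets) called higher (right, orange) or lower (left, blue) at 8 h in HET pancreas, in percent on the x axis. Dashed lines mark the shares of all 12856 genes (30.7% higher and 24.5% lower), and lists are ordered by their median change, from EGF receptor genes and immediate early genes to acinar products.

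Most tested genes of digestive enzymes and other acinar products were lower at 8 h, and none was called higher. Of the digestive enzymes, 7 of 11 tested proteases and 5 of 6 tested lipases, amylases and nucleases were lower, with median log2 changes of -1.74 and -2.10. Chymotrypsin-like Ctrl read 88400, 48000 and 46900 FPKM in saline and 11100, 10100 and 10500 FPKM at 8 h (-2.47 ± 0.82). Elastase 3B (Cela3b) read 61200, 32100 and 40800 FPKM against 11700, 9960 and 9110 FPKM (-2.08 ± 0.60). Both genes were lower in every 8 h library, and Ctrl lost its call when 1 library was left out. Colipase (Clps) fell by 2.85 ± 0.69 and phospholipase A2 (Pla2g1b) by 2.65 ± 0.72 on the log2 scale. The trypsinogens Prss1 and Prss3 and the kallikrein Klk1 were not called, with log2 changes of -0.09, -0.05 and -0.23. Of the zymogen granule and other acinar genes, 11 of 15 were lower (median -2.17). This list also holds genes whose products are not secreted, among them Cckar, Gatm, Gnmt and Slc43a1, of which 3 were lower. Lower members included the granule lectin Zg16 (85100, 45900 and 38100 FPKM against 5710, 5420 and 5560 FPKM), the trefoil peptide Tff2 (-2.86) and the ER protein Erp27 (-2.11). Syncollin (Sycn, -1.50) and Gp2 (-1.27) did not pass.

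Acinar transcription factors were split, with 8 of 16 lower, 4 higher and a median of -0.86. The ER-membrane factor Creb3l1 read 14.9, 15.3 and 20.8 FPKM in saline and 1.76, 2.02 and 2.37 FPKM at 8 h (-2.55 ± 0.17). Nr0b2, the corepressor SHP and a known target and partner of Nr5a2, read 7.49, 3.35 and 7.86 FPKM against 0.61, 0.589 and 0.44 FPKM (-2.16 ± 0.31). Ptf1a, named here after its values were seen, read 37.6, 25.1 and 41.6 FPKM against 10.5, 11 and 8.4 FPKM (-1.68 ± 0.43). Higher genes included Foxa3 (1.03), Gata6 (0.77) and Hnf4a (0.56). Rbpjl, Bhlha15 (Mist1), Gata4 and Xbp1 did not pass, with log2 changes of -0.82, -0.76, -0.59 and -0.08.

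Of the genes of cholecystokinin and muscarinic signalling, 9 of 21 were higher (42.9%) and 5 lower (23.8%), beside 30.7% and 24.5% of all genes. Cckar and Rcan1, described above, stood at opposite ends of the list. Below the receptor, the G protein subunit gene Gna14 read 4.86, 3.34 and 2.45 FPKM in saline and 0.475, 0.258 and 0.471 FPKM at 8 h (-1.67 ± 0.22). Without saline replicate 3, 3 rather than 5 members were called lower. The same count of 3 was found under a scaling called enzyme-free below. This scaling divided each library by its sum without enzymes, Reg genes and the genes treated as missing in any group.

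Promoters of 5 genes that rose are printed because each holds the letters of a known response element. They were chosen after the values of these genes were seen. They are the 250 bases before the annotated start in RefSeq (build GRCm38.p6), 5′ to 3′ on the gene's strand, with matches in capitals on either strand. Atf3 (chr1:191183334-191183583, minus strand) holds a cyclic AMP response element, TGACGTNA. Slc7a11 (chr3:50443614-50443863, minus strand) holds 2 copies of TGATGNAA, the C/EBP-ATF response element. Srxn1 (chr2:152105274-152105523, plus strand) holds 3 matches to TGANNNNGC, a loose form of the antioxidant response element core that leaves the base after TGA free. Of these, TGAGTCAGC overlaps an AP-1 site. Hspa1a (chr17:34972157-34972406, minus strand) holds a pair of heat shock units, written GAANNTTC or TTCNNGAA. Mt1 (chr8:94178839-94179088, plus strand) holds a metal response core, TGCACNC or TGCGCNC.
Atf3: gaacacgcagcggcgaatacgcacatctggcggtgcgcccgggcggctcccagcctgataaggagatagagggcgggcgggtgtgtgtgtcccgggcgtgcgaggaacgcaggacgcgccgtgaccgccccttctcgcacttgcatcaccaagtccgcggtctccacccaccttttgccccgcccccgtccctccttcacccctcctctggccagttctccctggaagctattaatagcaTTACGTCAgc
Slc7a11: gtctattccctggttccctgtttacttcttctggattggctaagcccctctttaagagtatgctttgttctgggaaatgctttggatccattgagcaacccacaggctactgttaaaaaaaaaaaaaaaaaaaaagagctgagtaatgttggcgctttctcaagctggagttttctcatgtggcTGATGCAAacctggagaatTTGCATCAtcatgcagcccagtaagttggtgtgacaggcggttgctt
Srxn1: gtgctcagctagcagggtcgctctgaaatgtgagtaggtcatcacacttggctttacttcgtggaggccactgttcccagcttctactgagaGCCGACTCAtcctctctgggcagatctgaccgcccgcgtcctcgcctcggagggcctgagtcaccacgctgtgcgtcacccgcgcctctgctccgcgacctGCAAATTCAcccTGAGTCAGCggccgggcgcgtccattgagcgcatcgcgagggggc
Hspa1a: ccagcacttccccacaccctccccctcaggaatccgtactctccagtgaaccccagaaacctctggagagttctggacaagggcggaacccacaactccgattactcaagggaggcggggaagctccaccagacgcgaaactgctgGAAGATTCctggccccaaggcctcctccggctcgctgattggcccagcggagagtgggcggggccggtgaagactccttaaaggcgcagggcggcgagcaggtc
Mt1: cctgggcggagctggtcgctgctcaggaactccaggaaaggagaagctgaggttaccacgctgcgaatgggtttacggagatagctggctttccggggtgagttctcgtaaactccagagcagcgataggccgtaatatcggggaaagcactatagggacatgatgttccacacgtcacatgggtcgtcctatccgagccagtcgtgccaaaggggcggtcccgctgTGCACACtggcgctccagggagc

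Over 32851 RefSeq promoter windows of this length, the cyclic AMP element was found in 2.52% and the C/EBP-ATF element in 3.45%. The loose antioxidant form was found in 35.2%, the heat shock pair in 12.8% and the metal core in 21.4%. Some genes have several windows. Among the windows of called-higher members, 2 of 13 of AP-1 genes held the first motif (15.4%), 5 of 25 of ATF4 genes the second (20.0%), 5 of 7 of NRF2 genes the third (71.4%), 7 of 16 of heat shock genes the fourth (43.8%) and 2 of 9 of Reg and acute phase genes the fifth (22.2%). The windows of the 5 lists came from 9, 20, 5, 11 and 7 genes, of which 2, 5, 4, 6 and 2 held a match. Members not called higher were not counted, so these shares cannot be tied to the change at 8 h. These matches describe letters in a window and not binding.

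Immediate early genes were higher at 8 h. Of 14 tested AP-1 genes, 10 were higher and none lower (median 1.76), and of 35 other immediate early genes 24 were higher and none lower (median 2.13). Atf3, a stress-induced bZIP repressor and activator, read 2.04, 2.06 and 2.61 FPKM in saline and 235, 197 and 261 FPKM at 8 h (6.16 ± 0.24). Junb read 11.3, 3.88 and 7.87 FPKM against 110, 99.1 and 130 FPKM (3.81 ± 0.47), and the small Maf gene Maff 1.78, 0.665 and 0.768 FPKM against 18.3, 16.4 and 18.6 FPKM (3.22 ± 0.19). Fosl1 was listed at 0 in all 3 saline libraries and at 9.98, 8.72 and 10.7 FPKM at 8 h. All 4 were higher in every 8 h library than in any saline library.

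Fos and Jun, the founding members of AP-1 and named here after their values were seen, did not pass. Fos read 22.1, 2.19 and 33.9 FPKM in saline and 17.1, 12.1 and 26.2 FPKM at 8 h (0.44 ± 0.87, adjusted p = 0.699), and Jun 21.9, 5.52 and 24.5 FPKM against 26.5, 21.4 and 25.9 FPKM (0.71 ± 0.47). Saline replicate 2 was the low library in both genes and again in Egr1 (64.3, 2.35 and 34.2 FPKM), so the saline animals differed among themselves in the fastest of these genes. Among the others, the ERK phosphatase Dusp5 rose from 1.33, 1.25 and 0.366 to 109, 100 and 126 FPKM (5.86 ± 0.24), and sphingosine kinase 1 (Sphk1) from 0.617, 1.51 and 0.817 to 60.2, 62.3 and 65.6 FPKM (5.03 ± 0.22). Serum response factor (Srf), which drives many of these genes, rose from 3.19, 2.47 and 2.65 to 30.4, 29.2 and 34.2 FPKM (3.10 ± 0.12). Klf5 (3.11), Ier5 (3.51), Gadd45a (3.66) and Rrad (4.47) were also higher.

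Of the 8 tested EGF receptor ligands, receptors and the feedback inhibitor Errfi1, 7 were higher and 1 lower (median 2.16). The ligand betacellulin (Btc) read 0.584, 0.327 and 0.256 FPKM in saline and 38.1, 34 and 24.6 FPKM at 8 h (4.57 ± 0.23). The ligand Hbegf read 1.95, 0.521 and 0.23 FPKM against 40.3, 28.4 and 27.6 FPKM (4.21 ± 0.29), and the receptor Egfr 1.62, 3.66 and 4.95 FPKM against 47.8, 47.9 and 39.4 FPKM (3.46 ± 0.28). Erbb3, the kinase-impaired partner, rose by 1.92 ± 0.18. The lower member was Egf, at 29.7, 24.5 and 22 FPKM in saline and 7.17, 6.61 and 6.61 FPKM at 8 h (-1.75 ± 0.27).

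Genes of the amino acid and integrated stress response, which are driven by the factor ATF4, were higher in 22 of 26 members and lower in none (median 2.02). Chac1, a glutathione-degrading enzyme, read 10.6, 12.2 and 29.5 FPKM in saline and 841, 736 and 1130 FPKM at 8 h (5.73 ± 0.46). Sesn2, an inhibitor of TORC1 signalling, read 1.3, 1.43 and 1.83 FPKM against 39.9, 39.5 and 49.2 FPKM (4.12 ± 0.26), and the cystine transporter gene Slc7a11 0.705, 1.18 and 1.71 FPKM against 16, 17.9 and 19.6 FPKM (3.12 ± 0.19). Cebpb rose by 3.84 ± 0.30, and Atf4 itself by 1.71 ± 0.24. Asparagine synthetase (Asns) and Phgdh, both classical ATF4 targets, did not pass (0.55 and 0.65). The aminoacyl-tRNA synthetases, which charge tRNAs with amino acids, were higher in 14 of 21 and lower in 1, the mitochondrial Fars2 (median 0.97). Alanyl-tRNA synthetase (Aars) read 15.4, 15.4 and 21.9 FPKM in saline and 74.9, 67.2 and 75.6 FPKM at 8 h. Its mean was 4.13-fold higher (adjusted p = 1.95e-07 by limma). Glycyl-tRNA synthetase (Gars) read 49.8, 35.7 and 45.2 FPKM against 164, 146 and 155 FPKM.

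The NRF2 and redox list was mixed, with 8 of 20 members higher (40.0%) and 6 lower (30.0%), beside 30.7% and 24.5% of all genes. Its median was 0.23, or 0.01 without saline replicate 3 and 0.13 with median-ratio scaling. Gclc, the catalytic subunit of the enzyme that starts glutathione synthesis, read 2.63, 2.15 and 2.11 FPKM in saline and 247, 202 and 159 FPKM at 8 h (5.93 ± 0.23), while its regulatory partner Gclm was lower (-0.79). Sulfiredoxin (Srxn1) read 3.05, 2.85 and 2.65 FPKM against 206, 161 and 135 FPKM (5.43 ± 0.22), and thioredoxin reductase (Txnrd1) rose by 3.01 ± 0.13. The glutathione transferase Gstm1 fell from 77.5, 63.3 and 64.9 to 8.7, 9.32 and 13.2 FPKM (-2.62 ± 0.27). Of 24 cytosolic heat shock genes, 15 were higher and 3 lower (median 1.27). The constitutive chaperone Hspa8 read 75, 112 and 109 FPKM against 916, 789 and 817 FPKM (3.10 ± 0.21), and Hsp90aa1 32.3, 21.1 and 33.4 FPKM against 218, 220 and 251 FPKM (2.97 ± 0.22). Inducible Hspa1a, which shares nearly its whole coding sequence with Hspa1b, read 0.556, 0.468 and 1.46 FPKM against 8.37, 7.56 and 11 FPKM (2.47 ± 0.25). The 3 lower genes were the cochaperones Fkbp4 (-0.94), Dnajb4 (-0.79) and Ahsa1 (-0.38).

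The machinery of the secretory pathway moved the other way. Of 25 genes of ER folding and degradation, 19 were lower and 3 higher (median -1.16), and of 42 genes of ER translocation and early transport 31 were lower and none higher (median -0.96). The ER cochaperone Dnajb11 read 271, 134 and 226 FPKM in saline and 26.3, 32.4 and 32.7 FPKM at 8 h (-2.69 ± 0.23), and Sdf2l1 111, 41.9 and 103 FPKM against 9.18, 12.2 and 9.63 FPKM (-2.82 ± 0.33). Signal recognition particle subunit Srp9 fell by 2.40 ± 0.25, the oligosaccharyltransferase subunits Ostc and Dad1 by 2.34 ± 0.19 and 2.30 ± 0.18, and the signal peptidase subunit Spcs2 by 2.29 ± 0.16 on the log2 scale. The 3 higher genes were the sensor kinase gene Ern1 (IRE1), at 4.76, 4.55 and 4.65 FPKM against 18.2, 16.2 and 15.1 FPKM (1.63 ± 0.12), the chaperone Hspa5 (BiP), at 455, 223 and 582 FPKM against 1130, 1020 and 1140 FPKM (1.49 ± 0.31), and Herpud1 (0.65 ± 0.27, adjusted p = 0.0497). Hspa5 and Herpud1 are named as the remaining higher members. Hspa5 was therefore higher in the same libraries in which its cofactors Dnajb11, Dnajc3 (-2.03) and Sdf2l1 were lower.

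Nuclear-encoded respiratory chain subunits were lower in 43 of 48 members and higher in none (median -1.27). Ndufs8, an iron-sulfur subunit of complex I, read 45.4, 29 and 33.6 FPKM in saline and 8.03, 7.56 and 8.42 FPKM at 8 h (-2.02 ± 0.18), and the ATP synthase subunit gene Atp5o 260, 154 and 130 FPKM against 44.3, 37.5 and 44.3 FPKM (-2.02 ± 0.20). The remaining 5 members, Cox7b, Ndufv1, Sdha, Uqcrc1 and Cycs, did not pass and lay between -0.63 and 0.08.

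Genes that build ribosomes and genes that encode ribosomal proteins differed in direction. Of 35 ribosome biogenesis factors, 34 were higher and none lower (median 1.33). Nop58, a core protein of box C/D snoRNPs, read 4.32, 4.39 and 4.46 FPKM in saline and 40.6, 37.3 and 38.8 FPKM at 8 h (2.89 ± 0.17), and the nucleolar helicase Ddx21 5.94, 4.8 and 7.21 FPKM against 33.7, 33.9 and 31.8 FPKM (2.30 ± 0.11). Of 74 cytosolic ribosomal protein genes, 53 were lower and none higher (median -0.65). Rplp2 read 1100, 610 and 716 FPKM against 357, 315 and 329 FPKM (-1.23 ± 0.19). That count rests on saline replicate 1, the library with the highest sum of FPKM: without it 23 were lower and 1 higher (median -0.36), and 23 were lower when the spread came from the 2 compared groups alone. Proteasome subunits gave no stable count, with 6 of 31 higher and 11 lower in all libraries, 7 higher and 3 lower without saline replicate 1, 2 higher and 11 lower without saline replicate 2, and 6 of each without 8 h replicate 1.

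Cytoskeletal and epithelial genes were higher. Of 36 actin, tubulin and actin-binding genes, 26 were higher and 3 lower (median 1.59). Cytoplasmic actin gamma (Actg1) read 16.6, 25.9 and 23.6 FPKM in saline and 829, 776 and 899 FPKM at 8 h (5.20 ± 0.21), the focal adhesion gene Zyx 7.3, 13.6 and 9.7 FPKM against 225, 206 and 188 FPKM (4.25 ± 0.15), and Tubb6 3.51, 6.28 and 5.66 FPKM against 95, 88.5 and 111 FPKM (4.03 ± 0.18). The lower 3 were Myl9 (-1.99), Myl12b (-1.46) and Tubb2b (-0.56). Of 35 keratin, claudin and dedifferentiation markers, 22 were higher and 4 lower (median 1.23). Krt8 and its partner Krt18, the keratins of simple epithelia, rose together: Krt8 read 87.9, 55.3 and 71.6 FPKM against 4670, 4120 and 4330 FPKM (5.94 ± 0.25), and Krt18 187, 111 and 135 FPKM against 3470, 3030 and 3150 FPKM (4.50 ± 0.23). Lower genes included Cldn10 (50.8, 36.9 and 41.9 FPKM against 2.73, 2.73 and 4.05 FPKM), Muc1 and Sox4. The claudins thus differed among themselves, with Cldn4 higher and Cldn10 lower in every library. Among YAP and TEAD targets, 6 of 13 were higher and 1 lower, with Ankrd1 at 1.94 ± 0.26.

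Of 28 tested chemokines and cytokines, 20 were higher and 2 lower (median 1.25). The chemokine Ccl2, which attracts monocytes, read 0.496, 3.71 and 2.99 FPKM in saline and 70.3, 62.4 and 103 FPKM at 8 h (4.68 ± 0.35). Lif, a cytokine of the IL-6 family, read 0.168, 0.0787 and 0.0434 FPKM against 37.2, 24.9 and 22.2 FPKM (4.70 ± 0.35), and Il1rn, the antagonist of the IL-1 receptor, 0.849, 2.98 and 0.935 FPKM against 34.4, 27.3 and 36.6 FPKM (3.79 ± 0.49). Il6 was listed at 0 in all saline libraries and at 5.13, 3.72 and 5.55 FPKM at 8 h. The 2 lower genes were Cxcl12 (-1.57) and Ccl8 (-1.68). STAT3 pathway genes, which respond to the IL-6 family, were higher in 13 of 15 members and lower in none (median 1.51). The oncostatin M receptor Osmr rose from 0.458, 2.26 and 1.83 to 19.9, 20.3 and 17.7 FPKM (3.09 ± 0.21). Of 21 NF-kappaB feedback genes and targets, 10 were higher and 1, Sod2, lower (median 0.67). The subunit gene Rela read 10, 11.3 and 10.1 FPKM against 90.2, 79.5 and 86.4 FPKM (2.91 ± 0.14), while the inhibitor Nfkbia did not pass (0.57).

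The Reg and acute phase list divided by family, with 7 of 19 members higher and 7 lower. All 6 tested Reg genes were lower: Reg1, Reg2, Reg3a, Reg3b, Reg3d and Reg3g lay between -4.42 and -2.51. Reg3g, an antibacterial lectin, read 47.2, 35.2 and 375 FPKM in saline and 2.42, 2.59 and 5.61 FPKM at 8 h (-4.33 ± 0.83), with saline replicate 3 far above the other 2. Pigr was the seventh lower gene. On the higher side, the metallothioneins Mt1 and Mt2 read 1510, 602 and 743 and 861, 249 and 385 FPKM in saline against 6720, 5790 and 5630 and 4840, 4010 and 3970 FPKM at 8 h (2.78 ± 0.29 and 3.29 ± 0.35). Lcn2, an iron-scavenging lipocalin, rose from 4.25, 5.76 and 8.53 to 118, 140 and 155 FPKM (4.31 ± 0.45), and the pentraxin Ptx3 from 0.176, 0.247 and 0.0966 to 34.6, 32.3 and 62.2 FPKM (5.17 ± 0.32). Injury-induced proteases, inhibitors and matrix genes were higher in 17 of 26 members and lower in 1, Plau (median 1.28). The urokinase receptor Plaur read 0.254, 2.02 and 0.835 FPKM against 31, 27.6 and 33.1 FPKM (4.04 ± 0.25), and the hyaluronan synthase Has1 read 0, 0.375 and 0 FPKM against 6.07, 4.79 and 6.75 FPKM (2.62 ± 0.22).

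Markers of other cell types differed by type. Neutrophil markers were not called in 10 of 13, higher in 3 (23.1%, below the 30.7% of all genes) and lower in none, with the higher genes Mmp8 (0, 0.189 and 0.148 FPKM against 3.25, 4.28 and 2.85 FPKM), Clec4d (1.74 ± 0.45) and Trem1 (1.22 ± 0.20), and 7 were higher with the spread of the 2 groups alone. Their mean level, on the log2(FPKM + 1) scale, spanned 0.73 to 1.70 in saline and 1.81 to 2.10 at 8 h. Of 20 macrophage and monocyte markers, Cd14 (2.76) and Ccr2 (1.04) were higher and C1qa (41.2, 86.5 and 43.2 FPKM against 17.2, 37.7 and 28.2 FPKM) and Csf1r (-0.95) lower, and all but Cd14 lost the call without some 1 library. None of 8 B cell and 8 T and NK cell markers passed by limma, and 0 of either had an unadjusted p under 0.05. Fibroblast and stellate cell markers were lower in 14 of 19 and higher in none (median -0.84), with mean levels of 3.53 to 4.11 in saline and 2.94 to 3.32 at 8 h. Col1a1 read 20.6, 40.9 and 29.9 FPKM against 8.4, 10.6 and 11.6 FPKM (-1.45 ± 0.35). Without saline replicate 2, or without 8 h replicate 1, 9 were lower, and 6 were under the enzyme-free scaling. Endothelial markers were lower in 6 of 14 and higher in 1, Flt1, and lower in 3 and higher in none under that scaling.

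Islet markers gave 1 call in 15: the transcription factor Pdx1, also made in acinar cells, was lower (-1.15 ± 0.23), while Ins2 read 908, 777 and 1200 FPKM in saline and 550, 1760 and 1150 FPKM at 8 h, and overlapped. Duct markers divided evenly, with 5 of 12 higher and 5 lower. The lower 5 include Tff2 (-2.86), also counted above as an acinar product. Krt19 read 32.5, 21.7 and 24.3 FPKM against 371, 355 and 307 FPKM (3.68 ± 0.22), and Muc1 297, 143 and 188 FPKM against 39.9, 28.4 and 45.1 FPKM (-2.40 ± 0.25). Adipocyte markers were lower in 5 of 13, with a mean level of 3.18 to 4.28 in saline and 2.23 to 2.95 at 8 h. Thrsp, a lipogenic gene, read 15.5, 41.2 and 9.43 FPKM against 0.938, 1.63 and 1.65 FPKM. Red blood cell markers were lower in 4 of 5, and in none without saline replicate 2 or without 8 h replicate 3. Of mesothelial markers 1 of 5, Lrrn4, was lower, and the single intestinal marker tested, Vil1, was higher (1.12 ± 0.29). The part of adipose tissue, blood and other cells in the acinar and stress results was not tested.

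Several other groups were mixed, some with shares near the 30.7% higher and 24.5% lower of all genes. Of 21 p53 targets, 9 were higher and 6 lower, with the cyclin-dependent kinase inhibitor Cdkn1a at 14.7, 9.41 and 16.5 FPKM in saline and 228, 186 and 205 FPKM at 8 h (3.86 ± 0.36), and the diacetyl reductase Dcxr lower (-1.92 ± 0.19). G1 cyclins, kinases and inhibitors were higher in 2 of 15 (Cdkn1a and Cdkn2b) and lower in 4, among them the inhibitors Cdkn1b (-1.03) and Cdkn2c (-1.52). Of 34 replication and mitosis genes, 11 were lower (32.4%) and 1, Mcm7, higher (2.9%), with a median of -0.31. Top2a read 3.61, 2.11 and 3.32 FPKM against 0.46, 0.341 and 1.21 FPKM. Circadian clock genes were higher in 7 of 16 and lower in 2, led by Nfil3 (5.81, 4.27 and 5.83 FPKM against 121, 116 and 123 FPKM, 4.27 ± 0.20), and 4 were higher and none lower under the enzyme-free scaling. Acinar amino acid metabolism was lower in 9 of 19 and higher in 4, and the S-adenosylmethionine synthase gene Mat2a rose from 15.4, 16.2 and 18.7 to 116, 98.6 and 81 FPKM (2.48 ± 0.21). Cholesterol synthesis genes were higher in 4 of 19 (21.1%) and lower in 6 (31.6%). Interferon response genes gave 1 call in each direction among 19, below the background shares of 30.7% and 24.5%. The higher gene was Irf9 (0.62), and both calls were lost without some 1 library.

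**Figure D3:**
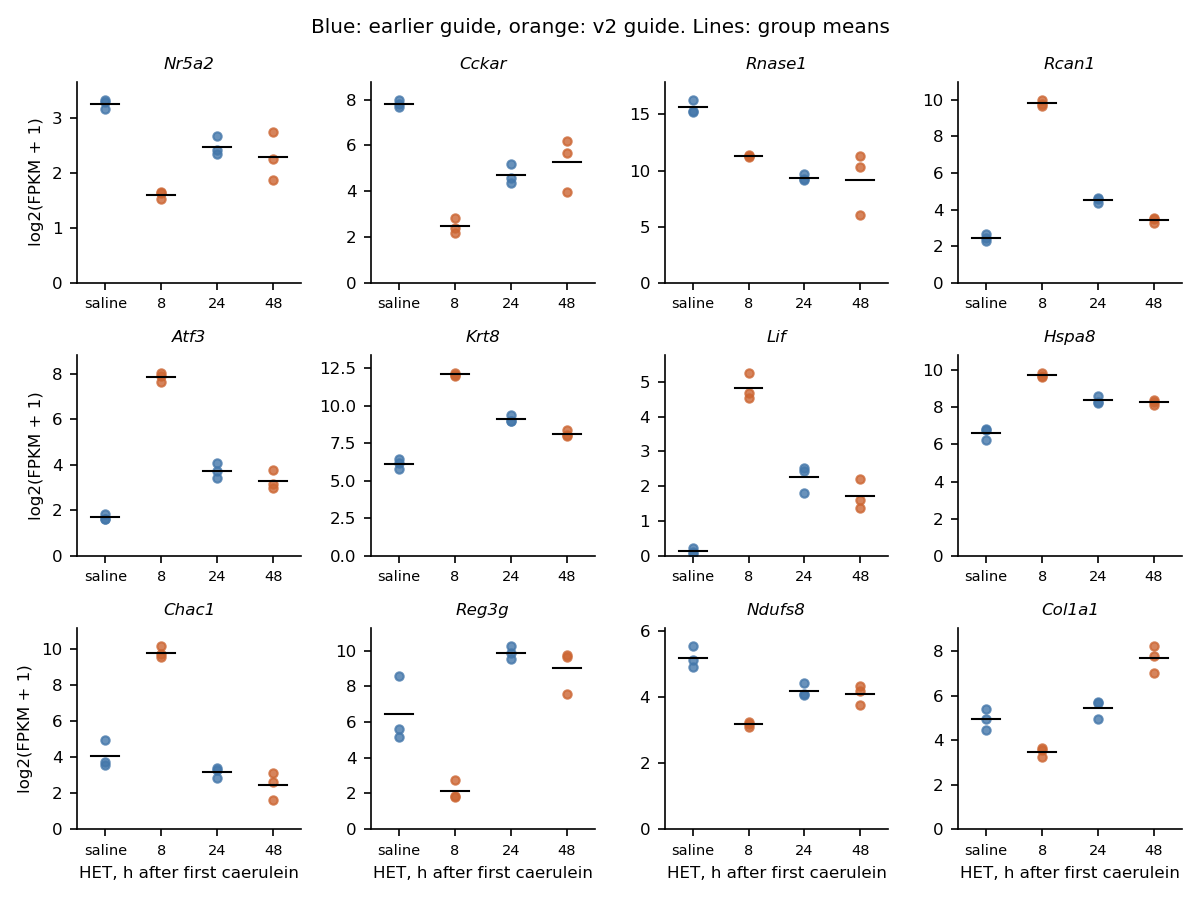
Levels of 12 named genes in HET pancreas as log2(FPKM + 1) on the y axis, in saline and 8, 24 and 48 h after the first caerulein injection on the x axis. Points are animals (3 per time), lines are means, and colours are library guides. The 8 h animals lie above all animals of the other 3 groups for Rcan1, Atf3, Krt8, Lif, Hspa8 and Chac1, and below them for Nr5a2, Cckar, Reg3g, Ndufs8 and Col1a1.

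The 8 h libraries can also be set against the HET libraries at 48 h, which followed the same v2 guide, and the saline libraries against those at 24 h, which followed the same earlier guide. These comparisons share libraries with the one above, so their values are given side by side only. At 48 h against 8 h, 6688 of 12862 genes passed (52.0%), 3009 higher (23.4%) and 3679 lower (28.6%). That split depends on scaling: under the enzyme-free scaling, 6625 were higher and 1196 lower, and the median of all genes moved from -0.03 to 0.66. Rcan1 was 10.1, 8.53 and 10.7 FPKM at 48 h, -6.40 from 8 h, after 19.8, 23.6 and 22.9 FPKM at 24 h. Chac1 was at 7.49, 5.18 and 2.04 FPKM at 48 h (-7.36) and at 6.25, 8.73 and 9.36 FPKM at 24 h, below its saline range of 10.6 to 29.5 FPKM. Cldn4 differed little between 8 and 48 h (-0.61, adjusted p = 0.277).

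The lists that were higher at 8 h differed in how they stood at 48 h against 8 h, within the v2 guide. Counts under the enzyme-free scaling stand beside 6625 genes higher and 1196 lower among all genes tested, with a median of 0.66. ATF4 genes were lower in 25 of 26 (median -3.01) and in 24 under the enzyme-free scaling. Other immediate early genes were lower in 27 of 35 (median -2.10), and in 20 under that scaling. EGF receptor genes were lower in 8 of 8 (median -2.44) or in 4 under it, and heat shock genes were lower in 16 of 24 (median -1.34), or higher in 8 and lower in 8 under it. Ribosome biogenesis factors were lower in 33 of 35 (median -1.20), and lower in 13 and higher in 2 under that scaling. AP-1 genes were lower in 9 of 14, or in 6 under it. Aminoacyl-tRNA synthetases were lower in 18 of 21, or lower in 10 and higher in 3 under it. STAT3 pathway genes were lower in 11 of 15 (median -0.86), or lower in 6 and higher in 1 under it (median 0.08). The medians of 5 other lists were closer to 0 and also changed sign with the scaling, as did the median of all genes (-0.03 to 0.66). Under the enzyme-free scaling they were 0.44 for the actin, 0.80 for the keratin, 0.64 for the injury-induced, 0.26 for the chemokine and 0.81 for the NF-kappaB list. Actin, tubulin and actin-binding genes were higher in 10 and lower in 18 of 36, or higher in 16 and lower in 9 under the enzyme-free scaling. Keratin, claudin and dedifferentiation markers were higher in 8 and lower in 12 of 35 (median -0.16), or higher in 18 and lower in 8 under it. Injury-induced genes were higher in 7 and lower in 10 of 26 (median -0.05), or higher in 12 and lower in 5, and chemokines and cytokines were higher in 5 and lower in 12 of 28, or higher in 10 and lower in 7. NF-kappaB genes were higher in 5 and lower in 2 of 21, or higher in 10 and lower in 1.

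Of the lists that were lower at 8 h, the enzyme and acinar product genes were lower still at 48 h: 10 of 11 proteases, 6 of 6 lipases, amylases and nucleases and 12 of 15 other acinar products were lower than at 8 h, with medians of -2.98, -3.51 and -3.45. The third 48 h library stood apart, with 2.84% of its FPKM in enzyme and Reg genes beside 20.7% and 12.7% in the other 2. These shares again leave out the genes treated as missing in any group. Without that library the 3 medians were -2.0, -2.38 and -2.25, with 9, 5 and 12 genes lower. The 2 members of the last list that were higher at 48 h than at 8 h were the receptor gene Cckar (2.82) and the enzyme gene Gatm (1.06). Respiratory chain and ER translocation genes had medians near that of all genes (0.18 and 0.02), with 10 of 48 and 13 of 42 higher and 5 and 11 lower. Under the enzyme-free scaling, 43 respiratory chain genes were higher and none lower, and 29 ER translocation genes were higher and 3 lower. Their medians were then 1.14 and 0.92, beside 0.66 for all genes. At 24 h, within the earlier guide, the median difference from saline was -0.94 for respiratory chain genes and -0.91 for ER translocation genes, beside -1.27 and -0.96 at 8 h.

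Reg3g and other genes and markers were higher at the later times than at 8 h. Reg3g read 1210, 922 and 740 FPKM at 24 h and 874, 810 and 188 FPKM at 48 h, against 2.42 to 5.61 FPKM at 8 h. Fibroblast and stellate cell markers were higher at 48 h than at 8 h in 17 of 19 members (median 2.06), and replication and mitosis genes in 31 of 34 (median 1.26). Macrophage markers were higher in 15 of 20 (median 1.91). Nr5a2 read 4.09, 5.39 and 4.33 FPKM at 24 h and 5.7, 3.75 and 2.64 FPKM at 48 h, all above its 8 h values and below its saline values.

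**Figure D4:**
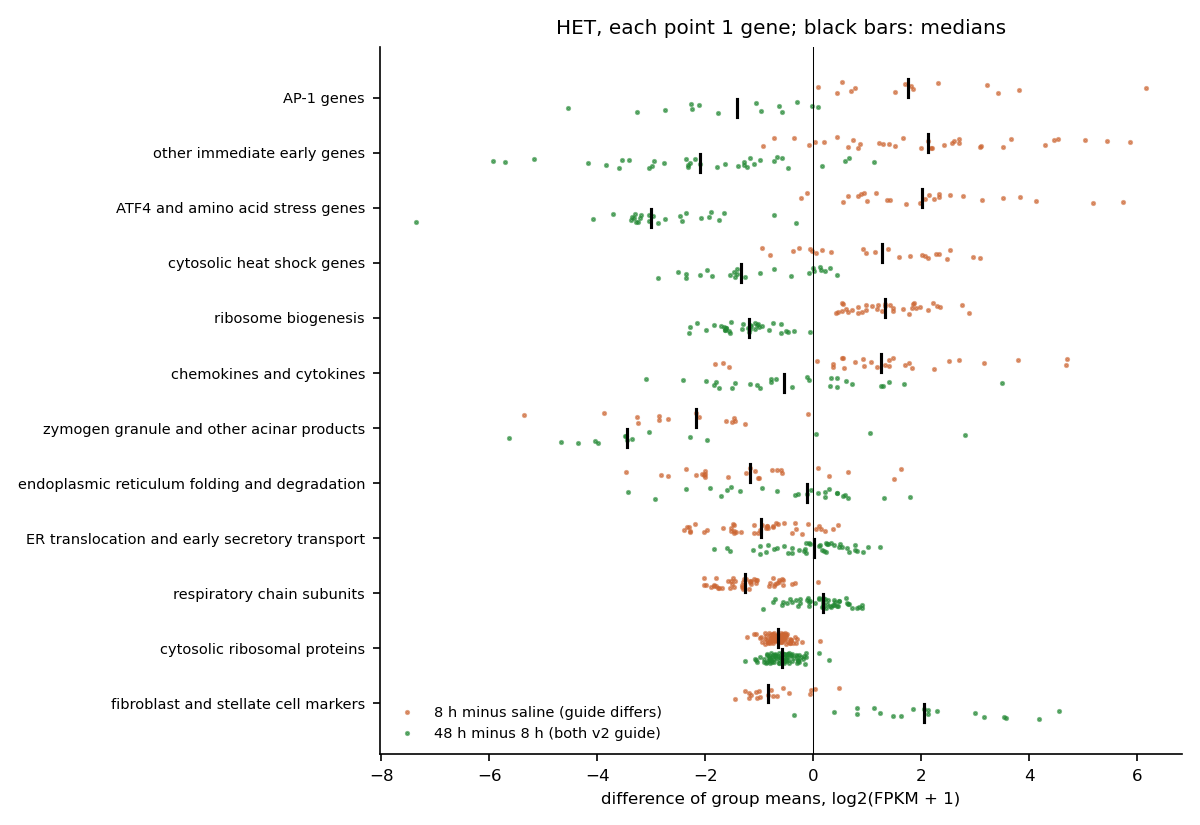
Change of each member (1 point per gene) of 12 lists in HET pancreas, as the difference of group means in log2(FPKM + 1) on the x axis, for 8 h minus saline (orange, guides differ) and 48 h minus 8 h (green, both v2 guide). Black bars are medians; those of ATF4 genes are 2.02 and -3.01, of respiratory chain subunits -1.27 and 0.18, and of fibroblast markers -0.84 and 2.06, and the 2 differences share the 8 h libraries.

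The same comparison in WT mice uses 6 other libraries with the same difference in guide, except that 1 WT saline library is named under neither guide. Across 12855 genes, which are not independent replicates, the log2 changes of the 2 genotypes correlated at r = 0.863, and they lay within 0.5 of each other for 79.3% of genes and within 1 for 94.9%. In the test of the difference itself, the interaction of genotype with the 8 h response, 3 genes passed by limma (0.0233%). Of these, 2 had a higher change in HET than in WT (0.0156%) and 1 a lower change (0.00778%). An unadjusted p under 0.05 by limma was found for 1203 genes (9.36%). Rcan1 (7.35 in HET and 7.71 in WT), Cckar (-5.36 and -5.33), Krt8 (5.94 and 6.09) and Rnase1 (-4.32 and -4.33) did not pass the interaction test. Il6 at 8 h read 5.13, 3.72 and 5.55 FPKM in HET and 0.781 ± 0.756 FPKM (SD, n = 3) in WT, but the difference between responses did not pass by limma (adjusted p = 0.103). Ptx3 rose by 5.17 in HET and 3.45 in WT, and that difference did not pass either (adjusted p = 0.242). Thrsp and Plin1, adipocyte genes, fell in HET (-3.02 and -1.97) and changed by -0.23 and -0.07 in WT, and these differences did not pass (adjusted p = 0.302 and 0.48).

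**Figure D5:**
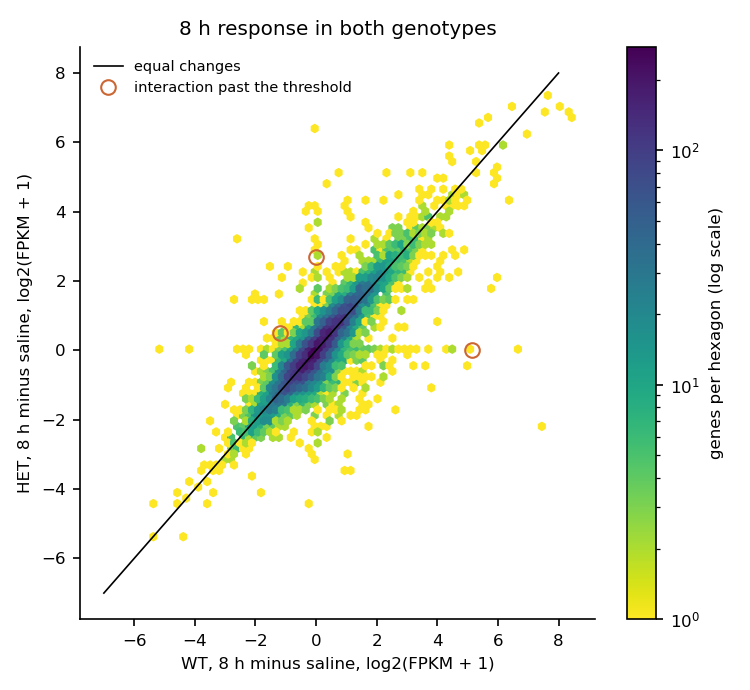
Log2 changes at 8 h against saline in WT (x axis) and HET (y axis) for 12855 genes, as log2(FPKM + 1) differences; colour gives the genes per hexagon on a log scale and the line marks equal changes. Most genes lie along the line (r = 0.863), and circles mark the 3 genes that passed the interaction test.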

How the data were processed

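Polyadenylated pancreas RNA was sequenced from 24 mice, and the 6 HET libraries of saline and 8 h caerulein were compared. The authors deposited 1 table of FPKM per Ensembl gene. Its header gives no unit, and FPKM was inferred from Cuffnorm. Per the submitters' processing notes, the tools were Bowtie, CASAVA 1.8, Cuffnorm and Cufflinks 2.0.2, and the build was mm9. Tool roles and settings: not given in the sources used here. RNA integrity numbers were 6.6 to 9.2, per the labels' protocols.

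The table held 36806 genes, of which 31840 matched a name. Where an abundant gene was at 0 in all libraries of a group and at 100 FPKM or more in every library of another, those zeros, and those of neighbouring genes with the same pattern, were treated as missing (15 genes in HET saline, 9 at 8 h). No library had a value above 0 for Amy2a5, Amy2b or Ctrb1. Genes with at least 1 FPKM in 3 of 24 libraries were tested on log2(FPKM + 1) with limma 3.58.1 (R 4.3.3; trend and robust moderation, 1 mean per group over 8 groups), two-sided, adjusted by Benjamini-Hochberg over all genes at 0.05. The script was tested on simulated data. Columns were matched to samples by title, and replicates were numbered in accession order. The 45 gene lists, the members and the tests were chosen with earlier results of these data known. Named genes were Nr5a2, the 12 with the largest change per direction (at least 5 FPKM in the higher group, groups apart and not at 0) and the members of each list with the smallest adjusted p. The 12 per direction left out provisional names such as Gm or Rik, pseudogenes, antisense genes and small RNA genes. All other genes in the text were named after their values were seen, and some members of the lists are not reported here. A term for sex was added after the data were seen. Tables and plots used matplotlib 3.10.9, numpy 2.4.6, pandas 2.3.3 and scipy 1.17.1 under Python 3.11.15.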

Additional observations from a re-analysis of the deposited data

Results flagged for a closer look

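The 8 h response differed between HET and WT, by the interaction test, in 3 genes. Gm11032 had an interaction of -5.15: it read 42.6, 30.1 and 31.8 FPKM in WT at 8 h and was listed at 0 in all 21 other libraries. ENSMUSG00000082050 had an interaction of 2.68: it read 4.31, 3.77 and 9.37 FPKM in HET at 8 h, 1.02 FPKM in 1 HET library at 48 h and 0 in the other 20 libraries. St18, a zinc finger transcription factor gene, had an interaction of 1.69 (adjusted p = 0.025). St18 read 1.25, 2.13 and 1.91 FPKM in WT saline and 0.181, 0.219 and 0.206 FPKM in WT at 8 h, beside 0, 0.461 and 0 FPKM in HET saline and 0.327, 0.999 and 0.575 FPKM in HET at 8 h. Gm11032 passed under all alternatives run. By limma, ENSMUSG00000082050 did not pass with a pseudocount of 0.1 FPKM (adjusted p = 0.111) or under the enzyme-free scaling (adjusted p = 0.0538), and St18 did not pass under either (adjusted p = 0.124 and 0.411) or with the spread taken from the 4 groups of the test (adjusted p = 0.114). Neither gene was tested under the filter at 5 FPKM. With 1 library left out, the adjusted p of St18 by limma ranged from 0.00622 to 0.0832, past the threshold in some of these fits and not in others. In Gm11032 and ENSMUSG00000082050 whole groups are at 0, and whether such zeros are failed estimates was not tested.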

How the results depend on the processing

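The count of 7100 genes at 8 h against saline lay between 4961 (at least 5 FPKM in 3 libraries, with fewer genes tested) and 7465 (no filter) over the alternatives, with 5505 under the enzyme-free scaling and 6197 with the spread of the 2 groups alone, and between 6308 and 6772 with 1 library left out. Nr5a2 kept its call and direction under all alternatives run (-2.03 to -1.50; with 1 library left out -1.71 to -1.62). The count of 6688 at 48 h against 8 h was 4538 to 7821, and 5777 to 6213 with 1 library left out. The interaction count of 3 became 1 with a pseudocount of 0.1 FPKM, with the filter at 5 FPKM and under the enzyme-free scaling, 6 with no filter and 10 with zeros kept as values. It ranged from 2 to 16 with 1 library left out, with 16 without HET saline replicate 3, 12 without WT saline replicate 2, 6 without WT 8 h replicate 2 and 5 without WT 8 h replicate 1; the cause was not tested. Of 201 called named genes, 187 kept their call without any 1 library, and the 14 that did not included Alas2, C1qa, Ccr2, Csf1r, Ctrl, Hba-a1, Hba-a2, Hbb-bt, Irf9, Lrrn4, Pnliprp2 and St18. With the term for sex in the fit, 6949 genes passed at 8 h against saline (3877 higher and 3072 lower), and 4 named genes lost their call. No named gene reversed under any alternative. No paired analysis was possible because replicate numbers were given in accession order and nothing in the labels pairs animals. Depth is unknown, so the counting error of low FPKM values cannot be given.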
